A study of Sus scrofa with 12 samples.

Results

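IPEC-J2 is an established porcine cell line from the epithelium of the small intestine. Deoxyshikonin is a plant naphthoquinone from gromwell root. The experiment described here is the later of 2 exposures in the series, a comparison of cells given deoxyshikonin at 5 µmol/L for 24 h with untreated cells of the same time point. It holds 6 of the 12 RNA sequencing libraries of the series, 3 treated and 3 control, and the other 6 are the same groups at 6 h. The untreated groups received nothing that the labels name, so an effect of a vehicle cannot be told apart from that of the compound. All groups are the same line, and the labels do not say whether the replicates came from separate cultures, so p-values measure the spread between these libraries. Of 32518 identifiers in the authors' table, 11931 had a mean abundance of at least 1 TPM over these 6 libraries, and these are the genes compared. TPM is an abundance scaled by transcript length and by the total of the library.

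Quinones accept electrons from cellular reductases and react with the thiol groups of proteins. Cells meet such compounds with several inducible programmes. KEAP1, a thiol sensor, releases the transcription factor NRF2, which drives genes for quinone reduction, glutathione and thioredoxin metabolism and iron storage. Heat shock factor drives chaperones that bind unfolded proteins, and proteasome genes are raised when protein breakdown is overloaded. In the intestinal epithelium these programmes act beside the barrier of tight junctions and beside steady cell division.

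Epithelial markers matched the labelled cell type in part. KRT8 lay at 2242 ± 81.2 TPM (SD, n = 3) in controls and 1927 ± 42.3 TPM with treatment, EPCAM at 414 ± 34.8 TPM (SD, n = 3) in controls and 477 ± 35 TPM with treatment and CDH1 at 579.9 ± 18.6 TPM (SD, n = 3) in controls and 680.1 ± 22.7 TPM with treatment. Several intestinal markers were at or near 0, among them CDX2, a factor of intestinal identity, at a mean of 0.0267 TPM in controls and 0.0567 TPM in treated cells. FABP2 and SI, of absorptive cells, and LGR5, of crypt stem cells, had means of at most 0.01 TPM in either group. VIL1, a microvillar protein, rose from 1.51 ± 0.15 TPM (SD, n = 3) to 3.06 ± 0.585 TPM. PTPRC, which defines leukocytes, was listed at 0 in all 6 libraries at 24 h, although CD79A, otherwise known from B cells, lay at 311 ± 21.5 TPM (SD, n = 3) in controls and 317 ± 10.2 TPM with treatment. All 10 immune markers listed were found, they summed to 420.7 to 482 TPM in controls and 415 to 435 TPM in treated cells, and 5 passed 1 TPM. Of these CD14 rose from 1.5 ± 0.0889 TPM (SD, n = 3) to 4.49 ± 0.587 TPM and CD68 from 0.19 ± 0.271 TPM (SD, n = 3) to 3.88 ± 0.585 TPM, while AIF1 fell from 99.2 ± 10.1 TPM (SD, n = 3) to 66.2 ± 2.67 TPM. CSF1R, CD3E and CD2 lay at or near 0. Of 10 fibroblast markers listed 9 were found in the table, and they summed to 7.83 to 8.72 TPM in controls and 3.45 to 4.05 TPM in treated cells. Only COL1A1 and COL1A2 of these passed 1 TPM, and both fell, while LUM, DCN and PDGFRA lay at or near 0. Whether these immune and fibroblast markers have a part in other results was not tested. Because TPM keeps no depth, the number of reads behind a value is unknown. Libraries of the same group differed by a median of 0.0755 to 0.122 log2 units per gene, against 0.199 to 0.273 between treated and control libraries. Among the genes called different, the first treated library was the nearest of the 3 to the controls in 60.2%.

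At 24 h the treated cells differed from controls in 6006 of 11931 genes, or 50.3%. A gene is called different where limma gave it a Benjamini-Hochberg adjusted p-value under 0.05. With TPM as deposited, 3847 of these were higher, 32.2% of the genes tested, and 2159 lower, 18.1%. The balance depended on how the libraries were scaled, since 64.1% of the called genes were higher with TPM as deposited, 49.6% after rescaling by the median of ratios and 49.8% after quantile normalization. Most changes were small. The median absolute change of the called genes was 0.37 log2 units, and 543 genes, 4.55% of those tested, changed by at least 1 unit. Of these 294 rose and 249 fell, 2.46% and 2.09% of all genes. All log2 changes here are differences of log2(TPM + 1), a scale that understates changes of genes with low TPM. A rise or fall is a difference of treated cells from controls of the same time point, not a course over time. The 3 treated values lay wholly above or below the 3 control values in 56.1% of the tested genes, so the absence of overlap is the usual case in this comparison.

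The share of genes called was higher in the more abundant classes. Of 2619 genes with a mean of 1 to 5 TPM, 43.5% were called, 702 higher and 438 lower. These counts were 582 and 519 after median-of-ratios rescaling, and 578 and 591 after quantile normalization. From 5 to 20 TPM 46.9% of 4177 genes were called, and from 20 to 100 TPM 54.2% of 3918. Among 1074 genes of 100 to 1000 TPM, 64.6% were called, 373 higher and 321 lower, a balance that turned to 279 and 410 after median-of-ratios rescaling and to 344 and 361 after quantile normalization. Of the 143 genes at 1000 TPM and above 61.5% were called, 32 higher and 56 lower. These numbers were 21 and 78 after median-of-ratios rescaling, and 30 and 66 after quantile normalization. The median standard error of a log2 change went the opposite way, from 0.11 in the lowest class to 0.04 in the highest. The size of the changes did not follow that order. The median absolute change was 0.28 in the lowest class, between 0.20 and 0.21 in the next 3, and 0.16 in the highest, and changes of at least 1 unit were called for 7.37% of the lowest class and 5.59% of the highest. No test of the classes against each other was made.

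**Figure D1:**
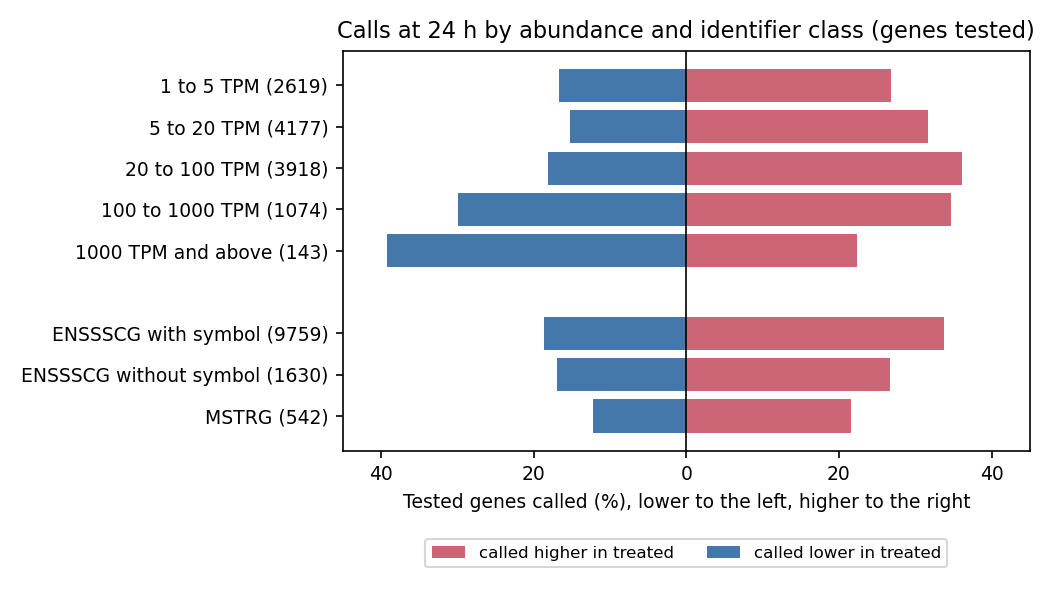
Share of tested genes called at 24 h (limma, adjusted p-value under 0.05) in classes of mean TPM and of identifier, with genes called lower in treated cells drawn to the left and genes called higher to the right of 0, in percent of the genes tested in each class. Calls higher outnumber calls lower in each class except that of 1000 TPM and above, with 32 higher and 56 lower, all with TPM as deposited.

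The largest rise and the largest fall in each class show what these proportions hold. In the lowest class the largest rise was that of ENSSSCG00000042659, which lay at 0, 0.19 and 0 TPM in the controls and 11.1, 8.74 and 7.39 TPM in the treated libraries. TTLL9, a member of the family of enzymes that add amino acids to tubulin, had the largest fall there, from 8.14 ± 0.965 TPM (SD, n = 3) to 0.807 ± 0.363 TPM. Between 5 and 20 TPM the extremes were ENSSSCG00000000248, 1.44 ± 0.159 TPM (SD, n = 3) in controls and 23.3 ± 1.18 TPM with treatment, and BEX4, 26.1 ± 2.52 TPM (SD, n = 3) in controls and 2.4 ± 0.673 TPM with treatment, both called. The class of 20 to 100 TPM ran from MSTRG.3939 (log2 change 5.46) to ENSSSCG00000026302 (-2.60), and that of 100 to 1000 TPM from HSPA6 (5.83) to ENSSSCG00000050649 (-2.81). At 1000 TPM and above they were ENSSSCG00000041875 (1.91) and MSTRG.6826 (-2.18).

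In summed abundance, with TPM as deposited, the most abundant class lost TPM and each other class gained. Its 143 genes held 521088, 520996 and 525920 TPM in the controls and 512264, 497641 and 495046 TPM in the treated libraries. The class of 20 to 100 TPM held 166146, 166307 and 162327 TPM in the controls and 170054, 177654 and 178586 TPM in the treated libraries. The treated libraries lay below the controls in the first of these classes and above them in the second, by 4.02% and 6.37% of the control mean. Genes of 1 to 5 TPM gained 501 TPM in total, and those of 100 to 1000 TPM gained 6868, without overlap between the groups in either. From 5 to 20 TPM the gain was 2670.3 TPM, and the groups overlapped. The 20587 identifiers under the threshold of 1 TPM, which were not tested, summed to 1351 ± 24.7 TPM (SD, n = 3) in controls and 1825 ± 64.4 in treated cells. With 3 libraries against 3, an exact permutation test of such sums cannot give a p-value below 0.1, so none of these differences in sums can pass 0.05. The class sums were not taken after rescaling. The median-of-ratios size factors, by which TPM is divided, were 0.96 to 0.99 in the 24 h controls and 1.00 to 1.05 in the treated libraries. Such a division lowers the treated sums against the controls, so the gains of these classes depend on the scaling.

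The identifiers fall into Ensembl pig genes (ENSSSCG) and loci with names beginning with MSTRG, the form that transcript assemblers give to loci of their own. A symbol was found for 15029 of the identifiers, all of them Ensembl genes, and for 9759 of the genes tested. Of the Ensembl genes with a symbol 52.4% were called, of 1630 without one 43.7%, and of 542 MSTRG loci 33.8%, or 117 higher and 66 lower. The counts of MSTRG loci were 89 and 74 after median-of-ratios rescaling, and 95 and 85 after quantile normalization. The MSTRG loci were the noisiest, with a median standard error of 0.20 against 0.08 for Ensembl genes, and 28 of the 542 swung between 0 TPM and at least 20 TPM among the libraries of the series. Their changes were larger at the same time, though a median absolute change also grows with noise, whose part was not tested. The median absolute change was 0.35 for MSTRG loci and 0.21 for Ensembl genes, and 8.49% against 4.36% were called with at least 1 log2 unit. Between 20 and 100 TPM, 16 of 135 MSTRG loci and 115 of 3783 Ensembl genes were called with at least 1 unit, 11.9% and 3.04%. The shares lay closer from 1 to 5 TPM, at 8.56% and 7.26%, and from 5 to 20 TPM, at 6.67% and 4.05%. Between 100 and 1000 TPM the order was the reverse, with 0 of 32 MSTRG loci and 38 of 1042 Ensembl genes, or 3.65%.

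The MSTRG loci together held a small part of each library. They summed to 24781, 24650.1 and 23723 TPM in the controls and 23990.3, 24236 and 23586 TPM in the treated libraries, and the groups overlapped. Within this sum the single locus MSTRG.6826 fell from 2089 ± 10.4 TPM (SD, n = 3) to 464 ± 74.7 TPM, a log2 change of -2.18 with SE 0.10 and an adjusted p of 3.42e-08 by limma. Ensembl genes without a symbol held 152964, 153206 and 163827 TPM in the controls and 170715, 168605 and 171888 TPM in the treated libraries, and the third control was the highest of its group.

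TPM has a fixed sum, so what some genes gained others lost. Between the group means, 95745 TPM moved from genes that were lower to genes that were higher in treated cells. Any treated and any control library differed by 88912 to 110686 TPM, whereas 2 libraries of the same group differed by 24376 to 44442 TPM. The loss was more concentrated than the gain. Of the TPM lost, 14.5% came from 1 gene and 33.4% from 10 genes, and 40 genes carried 50% of it. Of the TPM gained, 24.6% went to 10 genes, and 96 genes carried 50%. Genes called by limma carried 87.3% of the gain and 85.6% of the loss, and genes under 1 TPM carried 0.736% and 0.24%.

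**Figure D2:**
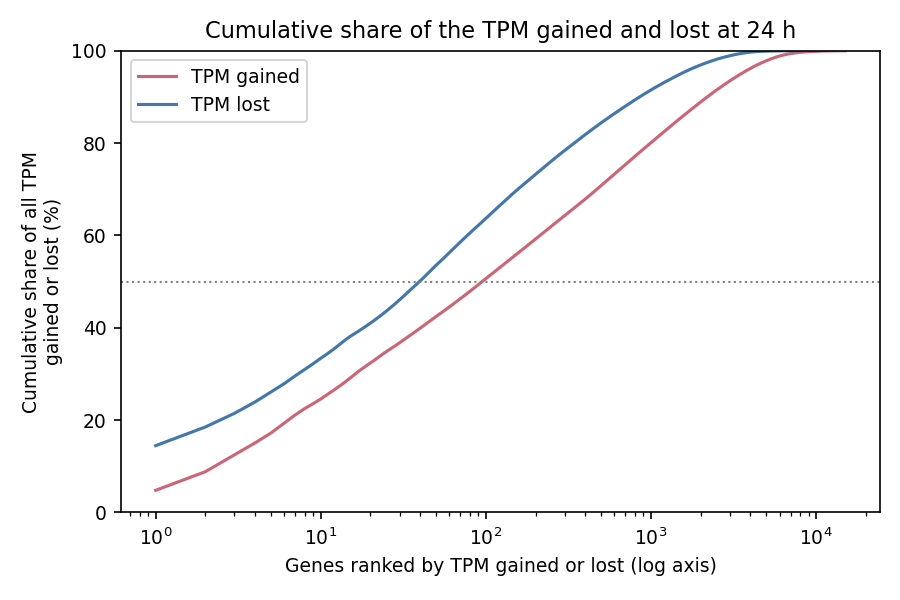
Cumulative share of all TPM gained (red) or lost (blue) between the group means at 24 h, in percent, against the rank of the genes by the TPM they gained or lost, on a log axis; the dotted line marks 50%. The line of losses lies above that of gains, and it reaches 50% at 40 genes against 96 for the gains.

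The gene that lost most was S100A6, a small calcium-binding protein of the S100 family and the most abundant transcript of these cells. It lay at 41387, 41076 and 44896 TPM in the controls and 31045, 27398 and 27382 TPM in the treated libraries. The highest treated library was below the lowest control, and the mean difference was -13845 TPM or -0.57 log2 units with SE 0.05 and an adjusted p of 5.14e-06 by limma. It ranked first in each of the 6 libraries, and quantile normalization gives such a gene the same value in all of them, so it cannot show this change. Its change at 6 h was -0.51, and the test of a difference between the times gave -0.06 (limma adjusted p = 0.474).

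Mitochondrially encoded transcripts took 4 of the 10 places among the largest losses. These genes, read from the mitochondrial genome, code for subunits of the respiratory chain. COX1, a catalytic subunit of cytochrome c oxidase, lay at 28085, 29755 and 27033 TPM in the controls and 25329, 24714 and 23207 TPM in the treated libraries. COX2, the neighbouring subunit, fell from 16835 ± 1179 TPM (SD, n = 3) to 14003 ± 938 TPM. CYTB, the cytochrome of complex III, had the largest log2 fall of the 13, -0.54 (SE 0.06, limma adjusted p = 4.77e-05), with 7794, 8101 and 6924 TPM in the controls and 5670.4, 5233 and 4839 TPM in the treated libraries. For ND4L the difference did not pass (limma adjusted p = 0.303). It lay at 14990, 15204 and 8912 TPM in the controls and 11719, 11158 and 10006 TPM in the treated libraries, with the third control far below the other controls and below every treated library. Without that control the change of ND4L was -0.46 and passed the test. In all, 5 of the 13 genes, 38.5%, were called lower and 0 higher, beside 18.1% and 32.2% of all genes. After median-of-ratios rescaling 8 were lower and 0 higher, and after quantile normalization 4 and 1. Of all genes 24.8% and 25.6% were lower after these rescalings. The sum of the 13 genes, 125140, 131388 and 114861 TPM in the controls and 114943, 109973 and 103871 TPM in the treated libraries, overlapped between the groups. The other called members were ND4 (-0.27) and ND5 (-0.20), and the call of ND5, whose groups overlapped, was lost in most alternatives, such as the fit of the 24 h libraries alone.

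Ribosomal protein genes RPLP1, RPS2 and RPLP0 also stood among the 10 largest losses, with changes of -0.24, -0.29 and -0.26. RPLP0, a protein of the ribosomal stalk, lay at 6640.4, 6618 and 6868 TPM in the controls and 5718, 5545 and 5487 TPM in the treated libraries. Of 49 cytoplasmic ribosomal protein genes tested, 22 were called lower and 2 higher, 44.9% and 4.08% beside 18.1% and 32.2% of all genes. After median-of-ratios rescaling 35 were lower and 1 higher, where 24.8% of all genes were lower. The falls were small, the largest being -0.48 for RPL3, which went from 1777 ± 22.2 TPM (SD, n = 3) to 1277 ± 28.6 TPM. RPS20 rose by 0.30, whereas RPL27, called higher at 0.07, changed sign with rescaling. The list's median was -0.10, beside 0.09 for all genes tested. Its summed TPM went from 132871 ± 4553 (SD, n = 3) to 122522 ± 1181, without overlap. Ribosomal proteins have many near-identical pseudogenes, so reads may be split between copies. Outside these families the losses were led by ENSSSCG00000033310, MSTRG.6826 and, among genes with a symbol, CCN3, a matricellular protein, which fell from 2228 ± 66.5 TPM (SD, n = 3) to 1267 ± 34.9 TPM. GAPDH, a glycolytic enzyme often used as a reference gene, had a change of -0.19 (limma adjusted p = 0.0138), a call lost without the first control, without the third treated library or without the filter on low values.

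**Figure D3:**
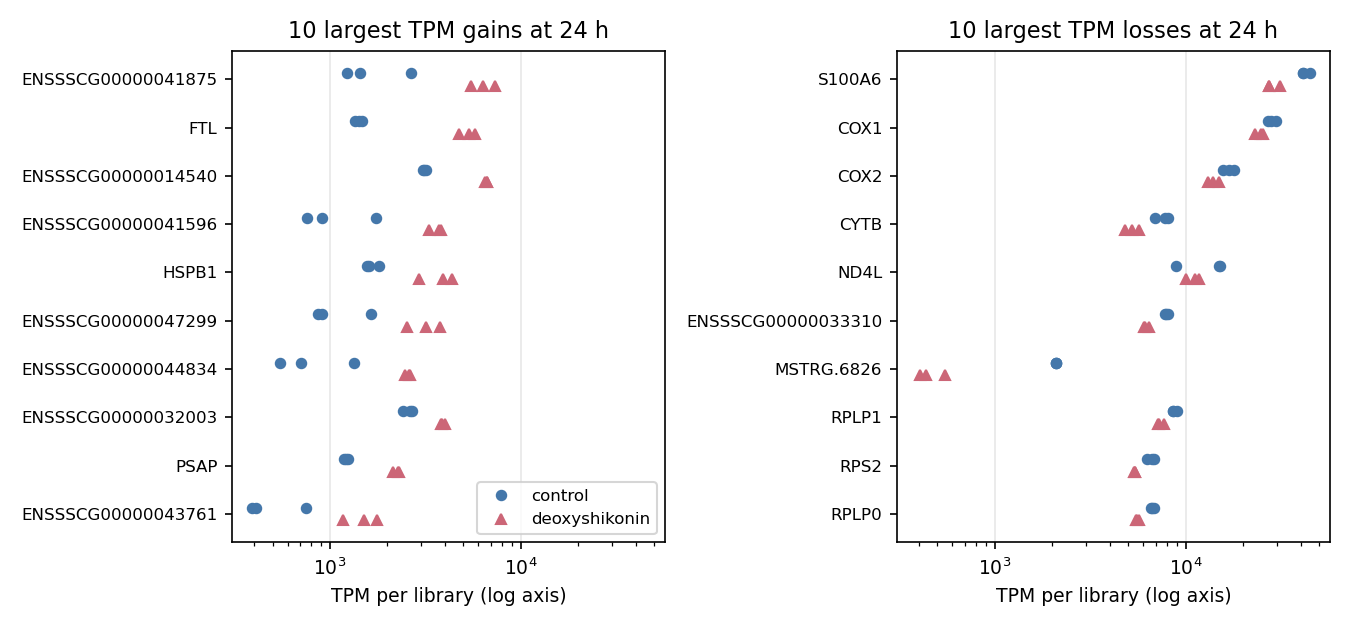
TPM of each 24 h library on a log axis for the 10 genes with the largest gain (left) and the 10 with the largest loss (right) of TPM between the group means; circles are the 3 controls and triangles the 3 treated libraries. Each gene of the left panel has all triangles to the right of the circles, the third control lying apart for 5 of them, and in the right panel ND4L alone has overlapping groups.

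The gains were led by a set of genes without a symbol and by iron storage and chaperone genes. FTL, the light chain of the iron store ferritin, lay at 1355, 1419 and 1481 TPM in the controls and 4726, 5376 and 5739 TPM in the treated libraries. This is a rise of 1.89 log2 units (SE 0.06, limma adjusted p = 4.96e-09), beside 1.78 at 6 h. HSPB1, a small heat shock protein, lay at 1605, 1557 and 1814 TPM in the controls and 2913, 3892 and 4381 TPM in the treated libraries, the first treated library being the lowest of its group. PSAP, the precursor of lysosomal saposins, rose from 1216 ± 32.8 TPM (SD, n = 3) to 2243 ± 86 TPM. Next with a symbol came SQSTM1, the autophagy receptor p62, at 187, 188 and 191 TPM in the controls and 874, 1150.3 and 1397 TPM in the treated libraries. DHDH, a dihydrodiol dehydrogenase, rose from 312 ± 10.7 TPM (SD, n = 3) to 1117 ± 103 TPM, and HSP70.2, an inducible chaperone of the HSP70 family, from 349 ± 16.4 TPM (SD, n = 3) to 1102 ± 163 TPM. LGALS1 and ACTB, which encode galectin-1 and β-actin, rose by 0.20 and 0.39, the former without a call after median-of-ratios rescaling.

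Of the 10 largest gains, 7 belonged to Ensembl genes for which no symbol was found. ENSSSCG00000014540 went from 3116 ± 53.4 TPM (SD, n = 3) to 6609 ± 109.6 TPM and ENSSSCG00000032003 from 2579 ± 143 TPM (SD, n = 3) to 3898 ± 86 TPM. The other 5 shared a pattern in the controls. ENSSSCG00000041875, the largest gain of all, lay at 1445, 1235 and 2645 TPM in the controls and 6339, 5457 and 7287 TPM in the treated libraries. ENSSSCG00000041596 had 913, 754 and 1751 TPM in the controls and 3823, 3299 and 3729.9 TPM in the treated libraries. In these 5 genes the third control was at least 1.5 times the other controls, and every treated library was above it. Their sum was 4382, 3786 and 8123 TPM in the controls against 18290, 15922 and 17359 TPM under treatment, which is 12.3% of all TPM gained. Without the third control the gain of these genes was 13107 TPM in place of 11760, and the change of ENSSSCG00000041875 was 2.24 in place of 1.91. Over all tested genes the third control stood at least 1.5 times above or below both other controls in 174 genes, beside 126 to 176 such genes for the other 5 libraries.

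By fold change the leading rises were in genes of low abundance in untreated cells. HSPA6, a strictly inducible HSP70 chaperone, lay at 3.03, 3.32 and 3.04 TPM in the controls and 306, 209 and 199 TPM in the treated libraries, a change of 5.83 (SE 0.14, limma adjusted p = 4.81e-10). GADD45G, a growth arrest and stress gene, had 1.39, 0.85 and 0.99 TPM in the controls and 91.8, 67.2 and 63.4 TPM in the treated libraries. CLU, which encodes the secreted chaperone clusterin, had 7.22, 6.96 and 8.3 TPM in the controls and 226, 269.5 and 318 TPM in the treated libraries. UCHL1, a ubiquitin hydrolase best known from neurons, had 1.43, 1.12 and 1.15 TPM in the controls and 44, 57.2 and 70 TPM in the treated libraries. A call and the absence of overlap were conditions for choosing these genes. Their changes were 5.83, 5.17, 4.99 and 4.68, with standard errors of 0.14, 0.13, 0.12 and 0.13. The set was completed by MSTRG.3939, MSTRG.5797, ENSSSCG00000035789 and ENSSSCG00000002623, with changes of 5.46, 4.90, 5.22 and 4.78. Among the next genes with a symbol were ZFAND2A, an arsenite-inducible partner of the proteasome, from 9.48 ± 0.314 TPM (SD, n = 3) to 146 ± 40.8 TPM, TUBB3, a β-tubulin, from 6.78 ± 0.717 TPM (SD, n = 3) to 55.5 ± 9.4 TPM, and BLVRB, a reductase that also uses quinones and flavins, from 40.5 ± 2.4 TPM (SD, n = 3) to 263 ± 19.7 TPM. GPX3 and UCP2, a glutathione peroxidase and a mitochondrial carrier, rose from 0.457 ± 0.329 TPM (SD, n = 3) to 12.4 ± 2.26 TPM and from 0.2 ± 0.135 TPM (SD, n = 3) to 10.4 ± 2.52 TPM, respectively.

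Of the 8 largest falls, 3 were in genes of cell division. BEX4 had the largest, -3.01 (SE 0.18, limma adjusted p = 2.42e-07), with 24.9, 24.4 and 29 TPM in the controls and 2.25, 1.82 and 3.14 TPM in the treated libraries. UPK2, a uroplakin of the urothelial surface, had 63.5, 59.4 and 61.9 TPM in the controls and 11.7, 9.61 and 9.13 TPM in the treated libraries. TOP2A, the topoisomerase that untangles replicated DNA, had 47.8, 52 and 45.6 TPM in the controls and 9.62, 8.12 and 5.97 TPM in the treated libraries. CENPF, a kinetochore protein, and CCNB1, the cyclin of mitotic entry, fell, with changes of -2.47 and -2.31. The other 3 of the 8 largest falls were ENSSSCG00000050649, ENSSSCG00000026302 and ENSSSCG00000050209, at -2.81, -2.60 and -2.37. Genes that swung between 0 and at least 20 TPM among libraries, 90 of those tested and 11 of those called, were not eligible for these places.

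**Figure D4:**
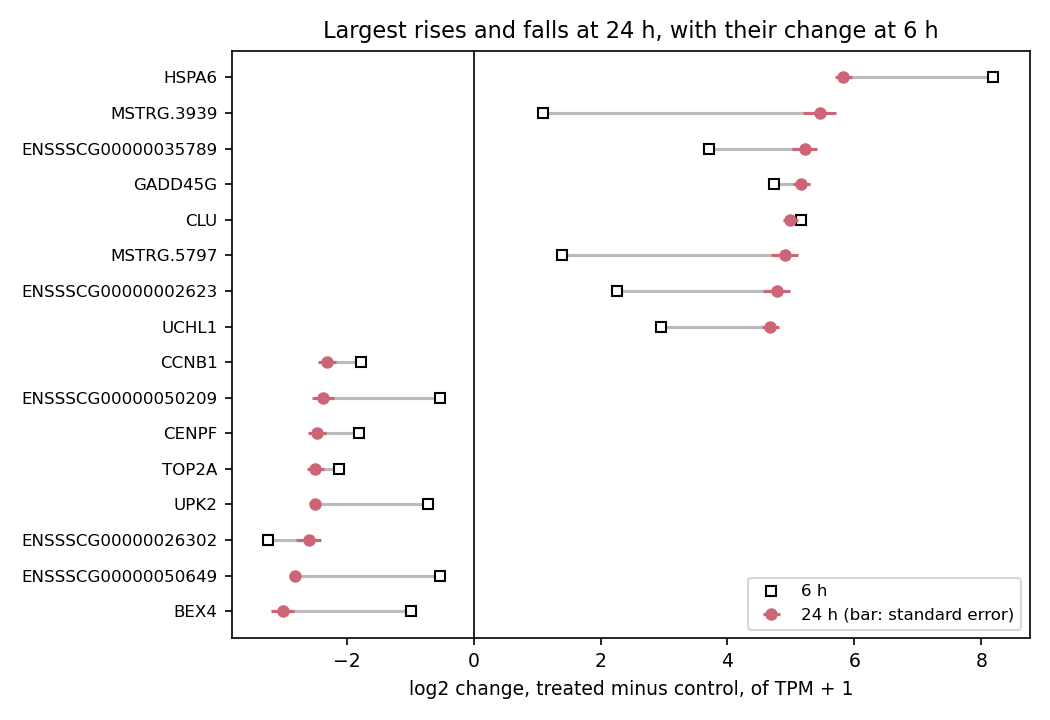
Log2 change of TPM + 1, treated minus control, at 24 h (circles, with the standard error of the fit) and at 6 h (squares) for the 8 largest rises and the 8 largest falls at 24 h among genes with a mean of at least 5 TPM. HSPA6 lies at 8.19 at 6 h and 5.83 at 24 h, whereas MSTRG.3939, MSTRG.5797 and BEX4 lie farther from 0 at 24 h.

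Most NRF2 target genes were higher. Of 26 members tested, 22 were called higher and 4 lower, with a median change of 0.83, beside 32.2% of all genes called higher and a median of 0.09. NQO1, which reduces quinones by transferring a pair of electrons, lay at 5.54, 5.57 and 6.05 TPM in the controls and 35.6, 41.7 and 48.5 TPM in the treated libraries. HMOX1, which degrades haem, lay at 13.7, 13.5 and 15.3 TPM in the controls and 79.6, 93.6 and 102 TPM in the treated libraries. Both were without overlap, with changes of 2.67 (SE 0.09) and 2.61 (SE 0.10, limma adjusted p = 8.74e-09 and 1.7e-08). Glutathione synthesis was represented by GCLC, from 1.58 ± 0.201 TPM (SD, n = 3) to 6.49 ± 0.865 TPM, and GCLM, from 4.19 ± 0.15 TPM (SD, n = 3) to 16 ± 4.47 TPM, the subunits of its rate-limiting enzyme. TXNRD1, thioredoxin reductase, rose from 33.7 ± 0.361 TPM (SD, n = 3) to 119 ± 18.7 TPM, and PRDX1, a peroxiredoxin, from 202 ± 7.3 TPM (SD, n = 3) to 461 ± 26.2 TPM. PGD, a pentose phosphate enzyme that supplies NADPH, rose by 0.74, but TKT of the same pathway had a change of -0.16, a call lost, among others, in the fit of the 24 h libraries alone.

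Some members of the list moved the other way at this time. SLC7A11, the cystine transporter that feeds glutathione synthesis, was at 20.9, 22.7 and 17.7 TPM in the controls and 9.95, 14.3 and 15.4 TPM in the treated libraries, a change of -0.61 (limma adjusted p = 0.00281) after a rise of 4.08 at 6 h. At 6 h its mean was 9.73 TPM in controls and 180.7 TPM with treatment. NFE2L2, which encodes NRF2 itself, and ABCC3, an export pump, fell as well, with changes of -0.30 and -0.34. The whole list summed to 3352, 3385 and 3401 TPM in the controls and 8149, 9169 and 9889.6 TPM in the treated libraries, and FTL made up most of the difference. Other iron genes changed less. TFRC, the receptor for iron uptake, fell by 0.30, and SLC40A1, the iron exporter ferroportin, rose by 0.36.

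Heat shock genes had 7 of 15 members higher and 2 lower, 46.7% and 13.3%, where 32.2% and 18.1% of all tested genes were called in these directions. CRYAB, a small chaperone, rose from 0.893 ± 0.423 TPM (SD, n = 3) to 10.3 ± 1.93 TPM, HSPB8 from 21.2 ± 0.51 TPM (SD, n = 3) to 48.3 ± 4.69 TPM and DNAJB1, a cochaperone of HSP70, from 38.5 ± 1.54 TPM (SD, n = 3) to 74.7 ± 6.32 TPM. HSPA8, a constitutive chaperone, lay at 1372 ± 30.5 TPM (SD, n = 3) in controls and 1530.2 ± 11.6 TPM with treatment and did not pass the test. HSP90AB1, another, lay at 1524 ± 23.1 TPM (SD, n = 3) in controls and 1472 ± 83 TPM with treatment and passed, as lower, only after median-of-ratios rescaling. Mitochondrial chaperones HSPD1 and HSPE1 fell, with changes of -0.48 and -0.21. With the median of ratios as scale 7 were higher and 4 lower. The list leaves out HSPA6 and HSP70.2, named above.

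Proteasome genes, too, were mostly higher. The list was set by a name pattern that is not limited to subunits. Of its 33 genes tested 28 were higher and 1 lower, 84.8% and 3.03%. Of all genes 32.2% and 18.1% were called in these directions, and the list's median was 0.42. The largest rises were PSMC4, an ATPase of the regulatory cap, with 49.2, 49 and 53 TPM in the controls and 88.9, 100.5 and 111 TPM in the treated libraries, and PSMD8, also of the cap, with 202, 192 and 206 TPM in the controls and 351, 379 and 415 TPM in the treated libraries. PSMD10 alone was called lower, at -0.28. With the median of ratios as scale 26 were higher and 2 lower. PSMB8, an interferon-induced subunit, lay at 3.55 ± 0.53 TPM (SD, n = 3) in controls and 4.14 ± 0.211 TPM with treatment and was not called. The same held for PSMB10, at 7.41 ± 0.272 TPM (SD, n = 3) in controls and 8.14 ± 1.04 TPM with treatment. The summed TPM of the family was 4529, 4446 and 4655 TPM in the controls and 5809, 6369 and 6784 TPM in the treated libraries, so that the lowest treated library stood above the highest control.

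Of genes of the unfolded protein and integrated stress responses, more fell than rose. Of 25 tested, 16 were lower and 4 higher, 64% and 16% against 18.1% and 32.2% of all genes, with a median of -0.30. PSAT1 and PHGDH, enzymes of serine synthesis, had the largest falls. PSAT1 lay at 311, 333 and 333 TPM in the controls and 123, 112 and 98.8 TPM in the treated libraries, and PHGDH at 35.8, 33.9 and 34.8 TPM in the controls and 16.9, 11.4 and 14.4 TPM in the treated libraries. At 6 h the mean of PHGDH was 5.36 TPM in controls and 5.17 TPM with treatment, below both groups at 24 h. CHAC1, which degrades glutathione, and ASNS, asparagine synthetase, fell from 80.5 ± 4.56 TPM (SD, n = 3) to 37.4 ± 4.48 TPM and from 411 ± 6.8 TPM (SD, n = 3) to 298 ± 5.74 TPM, respectively. The chaperones HSP90B1 and CALR of the endoplasmic reticulum fell, with changes of -0.66 and -0.40, and HSPA5 lay at 788 ± 27.2 TPM (SD, n = 3) in controls and 886 ± 19 TPM with treatment without a call. The 4 that rose were the transcription factors ATF3 (0.62) and DDIT3 (0.57), PPP1R15A (0.57), which restarts translation, and HERPUD1 (0.19), which lost its call after either rescaling.

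Most cell division genes were lower. Of 36 members tested, 31 were lower and 3 higher, with a median of -1.28, beside 18.1% of all genes called lower. Beside TOP2A, CENPF and CCNB1 the large falls included KIF20A, CDC20 and PLK1. KIF20A, a kinesin of the dividing cell's midzone, lay at 38.4, 36.2 and 34.3 TPM in the controls and 7.64, 6.75 and 5.49 TPM in the treated libraries. CDC20, an activator of the anaphase-promoting complex, lay at 60.5, 58 and 54.8 TPM in the controls and 15.8, 12.6 and 11.4 TPM in the treated libraries, and PLK1, a mitotic kinase, at 20.7, 18.1 and 18.6 TPM in the controls and 4.62, 3.95 and 4.24 TPM in the treated libraries. Among genes of DNA replication, the MCM helicase genes MCM2 to MCM7 had changes between -1.30 (MCM3) and -0.62 (MCM6), and RRM1, a subunit of ribonucleotide reductase, -0.47. The 3 higher members were CDK2 (0.32), CCND1 (0.28) and CDC25A (0.14), of which CDC25A lost its call after either rescaling. In bulk libraries, fewer dividing cells and less RNA of these genes in each cell cannot be told apart. The list summed to 1015, 1015 and 959.9 TPM in the controls and 542, 524 and 489 TPM in the treated libraries.

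Interferon-induced genes were of low abundance, and most were higher. Of 19 members tested 14 were higher and 0 lower under TPM as deposited and both rescalings, with a median of 0.71. All genes had 32.2% called higher and 18.1% lower. ISG15, a ubiquitin-like modifier, rose and lay at 59.8, 51.8 and 63.1 TPM in the controls and 151, 125 and 154 TPM in the treated libraries. MX1, an antiviral GTPase, lay at 2.19, 1.92 and 3.22 TPM in the controls and 14.2, 9.74 and 13.9 TPM in the treated libraries. IFIT1, which binds viral RNA, was uneven among treated libraries, at 0.61, 1.26 and 2 TPM in the controls and 12.9, 3.62 and 13.1 TPM in the treated libraries. The transcription factor genes IRF7 and IRF9 rose by 0.70 and 0.71. The list's sum in treated cells, 390 ± 33.5 TPM (SD, n = 3), stood above that of controls, 206 ± 7.97.

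**Figure D5:**
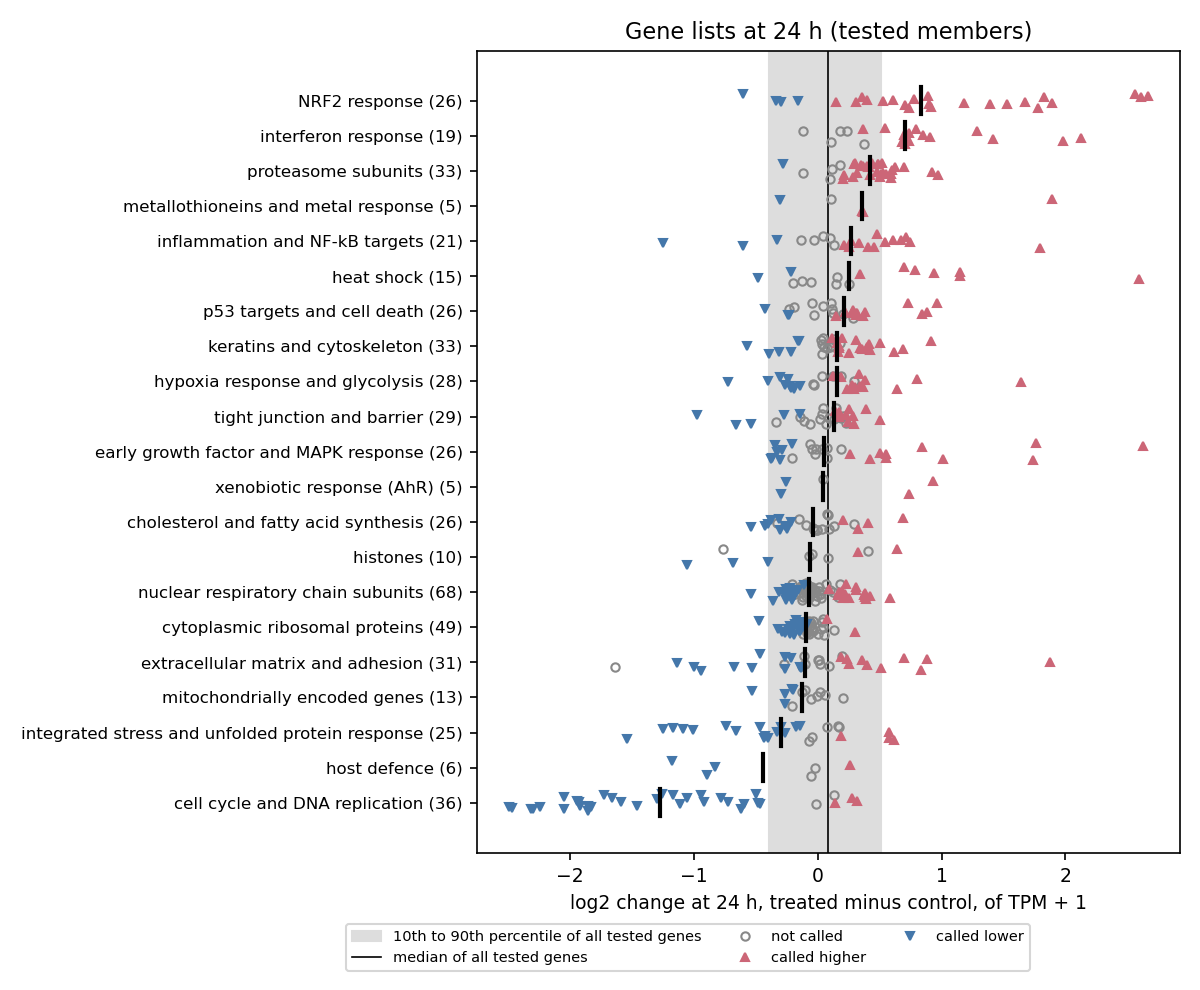
Log2 change of TPM + 1 at 24 h, treated minus control, of the tested members of 21 gene lists (numbers in brackets), one point per gene; thick bars are list medians, the thin line the median and the grey band the 10th to 90th percentile of all 11931 tested genes. NRF2 response genes and proteasome subunits lie mostly to the right and cell cycle genes to the left, with medians of 0.83, 0.42 and -1.28.

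Inflammatory genes had 13 of 21 members higher and 3 lower, 61.9% and 14.3%, beside 32.2% and 18.1% of all genes. IL6, a cytokine, fell and lay at 14.1, 13 and 12.2 TPM in the controls and 5.72, 4.92 and 4.22 TPM in the treated libraries, and PTGS2, the inducible cyclooxygenase, fell from 111 ± 4.02 TPM (SD, n = 3) to 72.8 ± 4.29 TPM. CXCL2, a chemokine for neutrophils, rose from 7.7 ± 1.12 TPM (SD, n = 3) to 13.6 ± 1.24 TPM, and IRF1 from 9.53 ± 0.493 TPM (SD, n = 3) to 15.1 ± 0.712 TPM. CXCL8, another neutrophil chemokine, lay at 45.5 ± 2.85 TPM (SD, n = 3) in controls and 49.9 ± 1.96 TPM with treatment and was not called. In the list of early response genes 10 of 26 were higher and 7 lower, 38.5% and 26.9%, near the shares of all genes. FOSB, a subunit of the AP-1 factor, rose from 1.48 ± 0.477 TPM (SD, n = 3) to 14.6 ± 4.52 TPM, DUSP5, a phosphatase of nuclear ERK, from 39.7 ± 2.39 TPM (SD, n = 3) to 138 ± 17.9 TPM, and IER3 from 22.4 ± 1.64 TPM (SD, n = 3) to 77 ± 7.16 TPM, while DUSP6, the cytoplasmic ERK phosphatase, fell by 0.37. Among 26 genes of the p53 pathway and cell death, 13 were higher and 3 lower, 50% and 11.5%. GADD45A and GADD45B rose by 0.85 and 0.97, and MLKL, the effector of necroptosis, by 0.88. CDKN1A, an inhibitor of cell cycle kinases, had a change of 0.14, a call lost after median-of-ratios rescaling. After either rescaling 5 members of this list were lower in place of 3.

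Few host defence genes could be tested. Of 40 names on the list 17 were found in the table, and 6 passed 1 TPM. Of these 1 was called higher and 3 lower, 16.7% and 50% beside 32.2% and 18.1% of all genes. Shares of so few genes cannot set the list apart. SLPI, an antiprotease with antimicrobial activity, fell and lay at 101, 95.2 and 107 TPM in the controls and 47.1, 43.9 and 41.8 TPM in the treated libraries. At 6 h its mean was 22.85 TPM in controls and 14.3 TPM with treatment, below both groups at 24 h. S100A12 fell from 9.2 ± 1.09 TPM (SD, n = 3) to 4.57 ± 1.35 TPM. DEFB1, a β-defensin, lay at 5.37, 1.3 and 3.03 TPM in the controls and 1.95, 0.6 and 1.21 TPM in the treated libraries, where the groups overlapped and the call (limma adjusted p = 0.0435) was lost in several alternatives, such as a pseudocount of 0.1. WFDC2, by far the most abundant member, lay at 1526 ± 103 TPM (SD, n = 3) in controls and 1827 ± 118 TPM with treatment and was called higher with TPM as deposited but not after median-of-ratios rescaling.

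Among barrier genes 10 of 29 were called higher and 5 lower. These are 34.5% and 17.2%, near the 32.2% and 18.1% of all genes, so the counts set the list apart in neither direction. After median-of-ratios rescaling 6 were higher and 7 lower. CLDN1, a sealing claudin, fell and lay at 170.3, 183 and 179 TPM in the controls and 108, 116 and 111 TPM in the treated libraries. MUC13, a transmembrane mucin, and ST14, the protease matriptase, fell from 22.4 ± 1.51 TPM (SD, n = 3) to 10.9 ± 1.22 TPM and from 469 ± 22 TPM (SD, n = 3) to 324 ± 20.9 TPM, respectively. F11R, the junctional adhesion molecule A, rose from 104 ± 3.17 TPM (SD, n = 3) to 148 ± 8.87 TPM, and PKP2, a desmosomal plakophilin, by 0.39. OCLN, which encodes occludin, lay at 108 ± 4.27 TPM (SD, n = 3) in controls and 100.1 ± 3.59 TPM with treatment and was called, as lower, only after either rescaling. TJP1, which encodes ZO-1, lay at 157 ± 13.2 TPM (SD, n = 3) in controls and 150.3 ± 7.8 TPM with treatment and was called, as lower, only after median-of-ratios rescaling. Without the third control, or without the second treated library, 6 barrier genes were called higher, and without the first control or the third treated library 3 were called lower.

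In the list of keratins and the cytoskeleton, which also holds S100A6, 17 of 33 were higher and 6 lower, 51.5% and 18.2% beside 32.2% and 18.1% of all genes, and 10 and 6 after median-of-ratios rescaling. TPM4, a tropomyosin, rose from 347 ± 12.3 TPM (SD, n = 3) to 532 ± 16.9 TPM, and TUBB6, a β-tubulin, from 6.05 ± 1.2 TPM (SD, n = 3) to 12.3 ± 2.45 TPM, while EZR, the microvillar linker ezrin, fell from 2119 ± 19.1 TPM (SD, n = 3) to 1613 ± 58.3 TPM. In the list of matrix and adhesion genes 10 of 31 were higher, 32.3%, near the share of all genes, and 11 were lower, 35.5%. FN1, the matrix glycoprotein fibronectin, fell and lay at 127, 129 and 103 TPM in the controls and 56.1, 56 and 49.3 TPM in the treated libraries, and COL12A1, a collagen, fell from 30.8 ± 3.88 TPM (SD, n = 3) to 14.9 ± 1.04 TPM. ITGA5, a subunit of the fibronectin receptor, rose by 0.88.

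Lists of metabolic genes had calls in both directions. In the list of hypoxia and glycolysis genes 13 of 28 were higher and 9 lower, 46.4% and 32.1% beside 32.2% and 18.1% of all genes. ADM, adrenomedullin, rose from 30.7 ± 2.32 TPM (SD, n = 3) to 98.3 ± 8.46 TPM and PFKFB4 from 4.64 ± 0.323 TPM (SD, n = 3) to 8.84 ± 0.427 TPM, while PDK1 and ALDOC fell, with changes of -0.73 and -0.40. The cholesterol and fatty acid list had 4 of 26 higher and 9 lower, 15.4% and 34.6%. INSIG1, which restrains sterol synthesis, rose by 0.69 and DHCR7 by 0.40, and IDI1, an enzyme of isoprenoid synthesis, fell by 0.54. Nuclear respiratory chain genes, a list whose name pattern also took in assembly factors, had 16 of 68 called in each direction. Their 47.1% called was near the 50.3% of all genes, and by the median of ratios 10 were higher and 30 lower. COX6A2 and SDHC rose by 0.59 and 0.42, and UQCRC2 and NDUFV1 fell, with changes of -0.54 and -0.36. Of 10 histone genes 2 were higher and 3 lower, or 50% called, near the share of all genes, among them H1-3 at -1.06, H2AZ1 at -0.69 and H2AJ at 0.64. In the list of the aryl hydrocarbon receptor TIPARP and CYP1A1 rose by 0.74 and 0.93, AHRR fell by 0.26, and AHR lay at 4.58 ± 0.805 TPM (SD, n = 3) in controls and 4.73 ± 0.568 TPM with treatment without a call.

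The later response was then set against that at 6 h, which no library shares with it. The interaction of treatment and time passed 0.05 for 7506 genes (limma, Benjamini-Hochberg), 62.9% of those tested. Its balance depended on the scaling of the libraries. With TPM as deposited the median interaction was 0.25 log2 units and 71.9% of the called genes had a more positive effect at 24 h, which is 45.3% of all genes tested, and 17.7% of all genes had a more negative one. After median-of-ratios rescaling the median was 0.05 and 52.6% of the called genes were more positive, and after quantile normalization these values were 0.01 and 50.4%. The share of all genes with a more negative effect was then 28.8% and 29.4%. Of the 3847 genes higher at 24 h, 1800 had a more positive effect than at 6 h, 863 a less positive one, and 1184 no called difference. After median-of-ratios rescaling the corresponding numbers were 1035, 1008 and 873 of 2916 genes. Of the 2159 lower genes, 476 had a more negative effect than at 6 h and 905 a less negative one, against 941 and 905 of 2958 after that rescaling.

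Among the groups described above, the interaction was called in 21 of 26 NRF2 response genes, 19 of them more negative at 24 h, beside the 17.7% of all genes. For heat shock genes it was called in all 15 tested, 13 of them more negative, and in the unfolded protein and integrated stress list in 22 of 25, of which 21 were more negative. With the median of ratios as scale 21, 13 and 23 members of these lists were called more negative and 0 more positive. Other lists went the opposite way. In that of keratins and the cytoskeleton 30 of 33 were more positive and 0 more negative, and 21 and 2 after median-of-ratios rescaling. The nuclear respiratory chain list had 49 of 68 and 2, then 22 and 4, and the cholesterol and fatty acid list 20 of 26 and 2, then 14 and 4. Of all genes 45.3% were more positive, and 32.0% after that rescaling. For HMOX1 the interaction was -4.27, for SQSTM1 -2.67, for NQO1 -1.96 and for HSPA6 -2.37 (limma adjusted p between 9.82e-09 and 1.71e-06). PSAT1 had opposite signs, 0.64 at 6 h and -1.55 at 24 h, and the interaction was -2.19 (adjusted p = 5.65e-08 by limma). The control mean of PSAT1 was 65 TPM at 6 h and 325.7 TPM at 24 h. With treatment PSAT1 lay at 101.7 and 111.3 TPM. In the cell division list the interaction was called in 25 of 36 genes, 18 more positive and 7 more negative. These counts lie near the shares of all genes, 62.9% called, 45.3% more positive and 17.7% more negative. CENPF and CCNB1 were among the 7 more negative members, at -0.67 and -0.54. By the median of ratios 15 were more positive and 10 more negative. Of its members named above, TOP2A, KIF20A, PLK1 and CDC20 had no called interaction, with adjusted p-values of 0.128, 0.0651, 0.824 and 0.744. For BEX4, UPK2 and ENSSSCG00000050649 the effect was more negative at 24 h, with interactions of -2.02, -1.78 and -2.29. The control mean of BEX4 was 3.29 TPM at 6 h and 26.1 TPM at 24 h, and its treated mean 1.14 and 2.40 TPM. Whether the lower control at 6 h has a part in the interaction of BEX4 was not tested. CCND1, with a change of -1.66 at 6 h, had an interaction of 1.94.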

How the data were processed

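RNA of IPEC-J2 cells was sequenced, and the authors deposited 1 table of TPM for 12 libraries. The submitters' processing notes name fastp, HISAT and RSEM. The genome build and annotation are not given in the sources used here, so no coordinates or sequences are printed. Symbols came from a gene name table. TPM keeps no depth, so the precision of a value comes from the replicates alone. Log2(TPM + 1) values of genes with a mean of at least 1 TPM over the 24 h libraries were fitted with limma 3.58.1 (R 4.3.3; moderated, trend on mean abundance, all 4 groups in 1 fit, 8 residual degrees of freedom), with two-sided tests and Benjamini-Hochberg adjustment over 11931 genes. On data simulated with independent normal noise, 93.5% of 200 genes changed by 1 log2 unit were recovered, and 70% at 0.5 units. Of the calls made there, 6.5% and 3.45% were false. Only 200 of 11931 genes were changed in the simulation, whereas 50.3% were called in the data, so these rates need not hold here.

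Genes and lists were chosen with earlier results of these data known. Named were the 10 largest gains and losses of TPM, the 8 largest called rises and falls without overlap at 5 TPM or more, the extremes of each abundance class, and the called extremes of each list. Other genes named in the text, among them the later ranks with a symbol and further members of the lists, were picked after their values were seen. Alternatives covered pseudocount, filters, scaling (median of ratios, quantile), replicate block, variance trend, compared groups and left-out libraries. Every column of the table was used in the fit. Some genes of the lists are counted but not reported here by name.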

Additional observations from a re-analysis of the deposited data

Results flagged for a closer look

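The effect of treatment differed between 24 h and 6 h, by limma's interaction test with TPM as deposited, in 7506 genes. Values are the log2 change at 24 h minus that at 6 h, and the balance of positive and negative values depends on the scaling. Of 119 genes named in the text with such an interaction, 15 lost it after median-of-ratios rescaling and 14 after quantile normalization. LGALS1 and RPL27 changed sign under the first, at -0.07 and -0.05, and RPLP0 and RPS2 under the second, at 0.08 and 0.03, which are among those that lost it.

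Of genes higher at 24 h, the effect was less positive than at 6 h for the following. Interactions here were -4.27 for HMOX1, -3.51 for DNAJB1, -3.46 for ZFAND2A, -3.03 for HSP70.2, -2.67 for SQSTM1, -2.43 for HSPB8, -2.37 for HSPA6, -2.35 for GCLC, -2.24 for CRYAB, -2.20 for SLC40A1, -2.20 for GCLM and -1.96 for NQO1. Next came -1.70 for HERPUD1, -1.62 for ATF3, -1.44 for ADM, -1.40 for DDIT3, -1.34 for PPP1R15A, -1.32 for TXNRD1, -1.09 for MLKL, -0.92 for KEAP1, -0.91 for FOSB, -0.74 for PGD, -0.73 for ENSSSCG00000000248 and -0.61 for PSMC4. Next came -0.58 for MX1, -0.52 for CD14, -0.49 for GADD45B, -0.48 for CXCL2, -0.43 for CDKN1A, -0.43 for PRDX1, -0.33 for F11R and -0.29 for ENSSSCG00000014540.

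Of genes higher at 24 h, the effect was more positive than at 6 h for the following. In this set they were 4.36 for MSTRG.3939, 3.50 for MSTRG.5797, 2.85 for ENSSSCG00000042659, 2.52 for ENSSSCG00000002623, 1.94 for CCND1, 1.89 for ENSSSCG00000041875, 1.88 for GPX3, 1.73 for UCHL1, 1.58 for UCP2, 1.56 for ACTB, 1.56 for PKP2 and 1.52 for TUBB6. Next came 1.51 for ENSSSCG00000035789, 1.45 for ENSSSCG00000041596, 1.40 for VIL1, 1.31 for INSIG1, 1.25 for TPM4, 1.10 for DHCR7, 0.99 for CDC25A, 0.85 for IRF9, 0.83 for COX6A2, 0.80 for DUSP5, 0.59 for HSPB1 and 0.52 for WFDC2. Next came 0.52 for CYP1A1, 0.47 for TUBB3, 0.43 for ENSSSCG00000032003, 0.35 for SDHC, 0.31 for CDK2, 0.29 for IRF7, 0.26 for DHDH, 0.18 for RPL27 and 0.17 for LGALS1.

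Of genes lower at 24 h, the effect was less negative than at 6 h for the following. The values were 2.14 for H1-3, 1.20 for MCM2, 1.12 for MCM3, 1.03 for CLDN1, 0.77 for RRM1, 0.64 for DUSP6, 0.64 for TFRC, 0.64 for KRT8, 0.60 for MCM7, 0.60 for ALDOC, 0.55 for MCM6 and 0.50 for PDK1. Next came 0.46 for IDI1, 0.34 for ST14 and 0.25 for EZR.

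Of genes lower at 24 h, the effect was more negative than at 6 h for the following. Values in this set were -4.69 for SLC7A11, -2.29 for ENSSSCG00000050649, -2.19 for PSAT1, -2.04 for CHAC1, -2.02 for BEX4, -1.84 for ENSSSCG00000050209, -1.78 for UPK2, -1.57 for HSPD1, -1.30 for TTLL9, -1.26 for PTGS2, -1.22 for ASNS and -1.20 for PHGDH. Next came -1.18 for HSP90B1, -0.84 for NFE2L2, -0.73 for CALR, -0.72 for FN1, -0.69 for HSPE1, -0.67 for CENPF, -0.54 for CCNB1, -0.54 for SLPI, -0.48 for COL12A1, -0.46 for COL1A2, -0.42 for CYTB and -0.34 for RPL3. Next came -0.32 for ND4, -0.32 for RPLP0, -0.30 for AHRR, -0.27 for UQCRC2, -0.27 for RPLP1, -0.26 for ENSSSCG00000033310 and -0.21 for RPS2.

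Some genes without a call at 24 h also had an interaction. They were -2.42 for CXCL8, -2.19 for HSPA5, -1.99 for HSPA8, 1.15 for EPCAM, 1.08 for PSMB10, -1.08 for HSP90AB1, 0.59 for TJP1 and 0.36 for OCLN.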

How the results depend on the processing

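The count of 6006 called genes ranged from 4884 to 6625 over the other settings of pseudocount, filter, scaling, variance trend, compared groups and replicate block, and it was 543 with a minimum change of 1 log2 unit. Leaving out 1 library gave 5001 to 6024 calls at 24 h, 7149 to 7483 interactions and 91968 to 101633 TPM moved. Leaving out the 13 mitochondrially encoded genes, chosen after seeing the data, gave 88451 TPM, and leaving out genes that were at 0 and at 20 TPM or more, also chosen afterwards, 6027 calls. Of the calls, 5075 were shared in direction with the median-of-ratios fit and 5173 with the quantile fit. RPL27 changed sign, to -0.0087 under the median of ratios and -0.011 under quantile normalization. S100A6 and COX1 rank first and second in each 24 h library, so quantile normalization sets their change at 24 h to 0. A replicate block in the fit gave 5878 calls at 24 h and 7412 interactions, but the numbers were not taken to pair the libraries, since same-numbered deviations correlated by 0.0607, 0.000475 and 0.106. The depth of the libraries is unknown, which limits what can be said of genes with low TPM, and untreated controls leave a vehicle effect inseparable from the compound. The cause of these differences between settings was not tested.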
